A study of Mus musculus with 20 samples.

Results

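The replication machinery was followed here as a set of 38 named mouse genes, which are the subunits that license, open and copy DNA, together with the enzymes that supply deoxynucleotides and the factors that put histones back on new DNA. Their rows were found by gene symbol and Ensembl identifier in an expression table of 39179 genes, and all 38 were present. Each of the 38 reached an average of 10 normalized counts in at least 1 group, as did 15536 genes of the table, called kept genes below.

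RNA was sequenced from 20 sorted samples of C57BL/6 mice in 5 groups. The controls were 5 samples of CD4SP thymocytes, the CD4+TCRβ+CD8- cells of the thymus, which the labels call wild type and the study calls littermate or heterozygous controls. CD4SP thymocytes were also taken from 3 samples labelled Id3 KO and from 3 samples labelled Id2_Id3_dKO (written dKO below), in which the study removed floxed Id2 and Id3 with a Cre expressed from the IL7R locus, so from early lymphoid cells onward. The thymocytes came from mice of 8 weeks. The follicular helper T (TFH) group held 3 samples of CD4+TCRβ+CD44highCXCR5+ spleen cells of wild-type mice, which the study immunized with sheep red blood cells. The last group held 6 Id2_Id3_dKO lymphomas, 1 from thymus, 4 from lymph node and 1 from spleen, of which 4 were sorted as CD3+TCRβ+CD4+ and 2 as CD3+TCRβ+CD8+ cells. The Cre line and the age of the mice behind the sequenced lymphomas were not stated. The comparisons ask how the replication genes stood in T cells labelled as lacking both Id2 and Id3, before and after transformation.

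The deposited table gives 1 average per group and no value per library. No spread between replicates, error or test could therefore be computed from the averages, and the p-values of the authors' own comparisons, also in the table, were not used. Every difference below is a difference between 2 averages and is not set against the replicate spread. Each value is an average of counts that the authors normalized with DESeq, and each log2 ratio has 1 normalized count added to both averages. A gene is counted as past 2-fold at a log2 ratio of at least 1 in either direction. In bulk samples like these, fewer cells of a type and less RNA per cell cannot be told apart.

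The labels were checked on Id2 and Id3, which encode inhibitors of E protein DNA binding. Id2 averaged 2293 in control, 6.82 in dKO CD4SP cells and 30.5 in the lymphomas, whereas Id3 averaged 1991, 879.7 and 856.8, so its transcript was lower in the Id2_Id3_dKO groups but still present. In the libraries labelled Id3 KO the Id3 average was 2650, higher than control, so the loss of Id3 cannot be read from this column and these are called the libraries labelled Id3KO. The T cell markers Cd3d, Cd3e, Cd3g, Cd247, Lck and Cd4 were each at 10 or more in every group. Xist, the RNA of the inactive X chromosome, averaged 10461 in control, 5060 in the libraries labelled Id3KO, 19.7 in dKO CD4SP cells, 10477 in the lymphomas and 9909 in TFH cells. Xist is transcribed from an X chromosome of female cells, the labels give no sex, and the part of sex in the results was not tested.

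Replication begins with licensing in G1, when the origin recognition complex, CDC6 and CDT1 load the ring of MCM2 to MCM7 onto origins. In S phase CDC45 and the GINS complex join the ring to make the active helicase. Primase and DNA polymerase α start each strand, the clamp PCNA, loaded by replication factor C, holds the polymerases on DNA, and FEN1 and LIG1 trim and join the lagging strand. In T cells these genes are low at rest and are transcribed as cells enter the cycle, in large part through E2F factors that act at their promoters.

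The promoters of 3 members are shown because they carry E2F-type letters close to the start in sequence that lies outside the annotated transcripts. Capitals mark the E2F-type matches, and each stretch is read 5′ to 3′ on the strand of its gene, from RefSeq on GRCm38.p6. The Mcm6 stretch is chr1:128359719-128359841 on the minus strand and ends 14 bases before the RefSeq start. The Mcm5 stretch is chr8:75109330-75109393 on the plus strand, and the Pola1 stretch is chrX:93632260-93632319 on the minus strand.
Mcm6: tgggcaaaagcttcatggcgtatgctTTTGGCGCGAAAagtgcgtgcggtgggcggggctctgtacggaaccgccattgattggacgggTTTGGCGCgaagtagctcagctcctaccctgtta
Mcm5: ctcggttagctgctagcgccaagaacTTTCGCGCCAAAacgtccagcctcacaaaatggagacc
Pola1: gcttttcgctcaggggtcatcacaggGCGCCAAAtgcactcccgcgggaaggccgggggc
Mcm6 held 3 matches in this stretch, whose first bases lay 110, 106 and 47 bases before the start. The first 2 of them, one on each strand, overlap, as do both matches of Mcm5, at 153 and 149 bases before its start. Pola1 held 1 match, on the opposite strand, 138 bases before its start.

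Windows from 250 bases before to 50 after the start were given for 31 of the 38 members. Mcm4, Gins1, Gins2, Gins4, Rfc2, Prim2 and Pole had none. An E2F-type motif (TTTCCCGC, TTTCGCGC, TTTGCCGC or TTTGGCGC, either strand) was present in 12 of the 31 members, or 38.7%, against 2.605% of 27025 genes with a window and 4.48% of the 10839 kept genes with one. The 12 were Cdc6, Cdt1, Gins3, Lig1, Mcm3, Mcm5, Mcm6, Mcm7, Orc1, Pola1, Pold1 and Rfc3. The CCAAT box (CCAAT, either strand) was present in 19 of 31 members, or 61.3%, against 42.7% of the kept genes, and the CHR letters TTTGAA, a motif of genes used late in the cell cycle, in 4 of 31, or 12.9%, against 14.5%. One E2F-type match, in Mcm7, overlapped a CCAAT box. The median log2 ratio to control of members with and without the E2F-type letters was 0.78 and 0.78 in dKO CD4SP cells, and 1.19 and 1.12 in the lymphomas. These are letters found in a window, and no binding was measured.

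As a sum, the members were lowest in control cells and highest in the lymphomas. Added up over the 38 genes, the averages came to 25884 normalized counts in control, 30757 in the libraries labelled Id3KO, 31672 in TFH cells, 46331 in dKO CD4SP cells and 57570 in the lymphomas. As a share of all counts this was 0.192%, 0.221%, 0.237%, 0.324% and 0.371%. The sum in dKO CD4SP cells was thus 1.79 times that of control, and in the lymphomas 2.22 times.

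**Figure D1:**
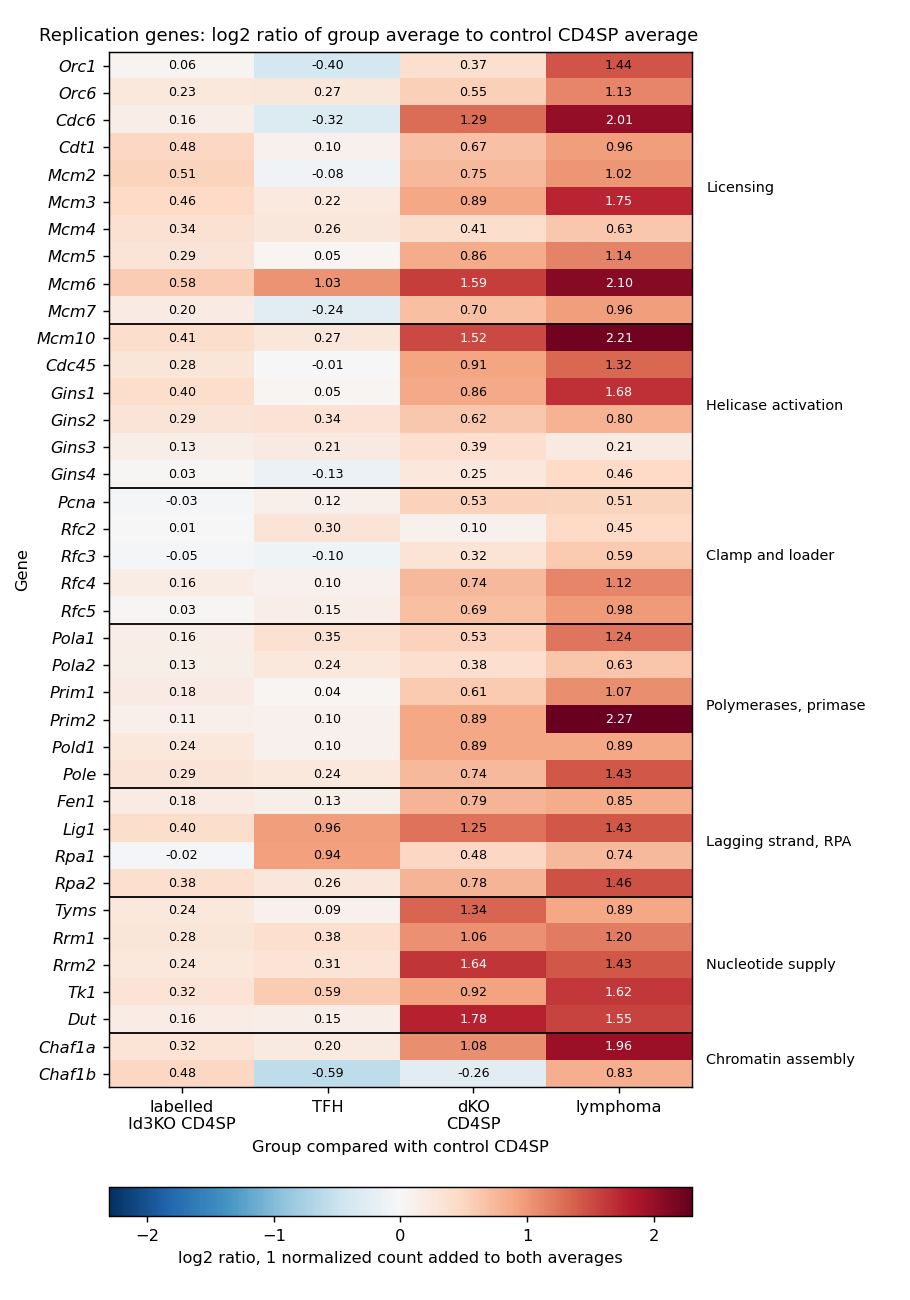
Heat map of the log2 ratio of each group average to the control CD4SP average for the 38 replication genes, ordered by role, with red for higher and blue for lower and the value printed in each cell. The dKO column is red except for Chaf1b (-0.26) and the lymphoma column is red throughout, up to 2.27 for Prim2, whereas most cells of the columns labelled Id3KO and TFH are pale.

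In dKO CD4SP cells 37 of the 38 members were above control, against 51.4% of the kept genes, and the exception was Chaf1b. Past 2-fold were 9 members, all higher, where 14.1% of the kept genes were 2-fold higher and 10.1% were 2-fold lower. The 9 were Dut, Rrm2, Mcm6, Mcm10, Tyms, Cdc6, Lig1, Chaf1a and Rrm1. The median log2 ratio was 0.74 over the members and 0.02 over the kept genes. The members nearest the 2-fold line were Rrm1 at 1.06 inside it and Tk1 at 0.92 outside it.

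In the lymphomas all 38 members were above control, against 50.9% of the kept genes. Past 2-fold were 22 members, all higher, where 18.2% of the kept genes were 2-fold higher and 17.2% were 2-fold lower. The median log2 ratio was 1.12 over the members and 0.02 over the kept genes. Nearest the line were Mcm2 at 1.02 and Rfc5 at 0.98.

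**Figure D2:**
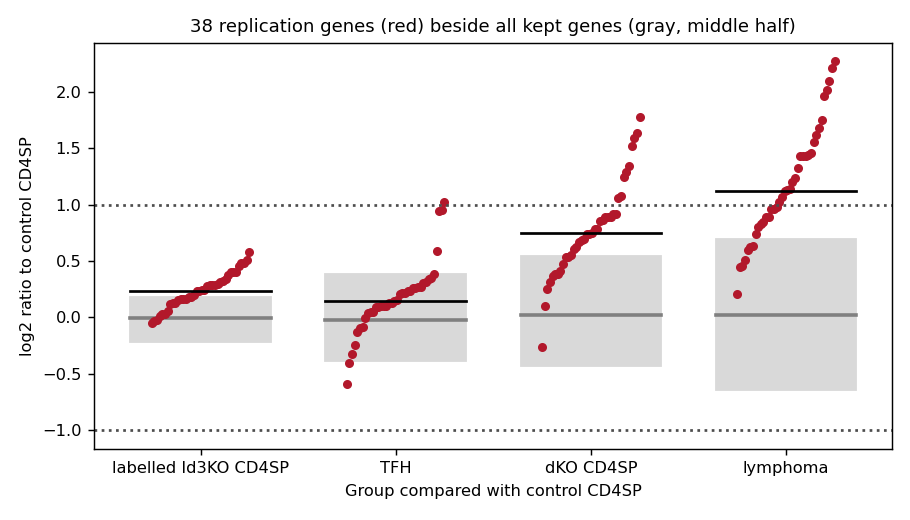
Log2 ratio to control CD4SP cells (vertical axis) of the 38 members (red points, black line at their median) in 4 groups, beside the range from the 25th to the 75th percentile of the 15536 kept genes (gray box, gray line at the median). Dotted lines mark 2-fold, and the members' median of 0.74 in dKO CD4SP cells and of 1.12 in the lymphomas lies above the gray box, which is centered near 0.

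Among the 10 licensing genes, all were higher than control in dKO CD4SP cells, with a median log2 ratio of 0.72, and 2 of them, Mcm6 and Cdc6, were past 2-fold. In the lymphomas the median was 1.13 and 7 of the 10 were past 2-fold. Cdc6, whose product loads the MCM ring with CDT1, averaged 183.1 in control, 204.6 in the libraries labelled Id3KO, 448.2 in dKO CD4SP cells, 742.2 in the lymphomas and 146.3 in TFH cells. It was thus 2.44-fold above control in dKO CD4SP cells and 4.04-fold above it in the lymphomas, and lowest of all in TFH cells.

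Orc1, the largest subunit of the origin recognition complex and the one whose level varies through the cycle, had the smallest ratio of the licensing genes in dKO CD4SP cells. Its averages were 54.1 in control, 56.4 in the libraries labelled Id3KO, 70.2 in dKO CD4SP cells, 148.6 in the lymphomas and 40.8 in TFH cells, a log2 ratio to control of 0.37 in dKO CD4SP cells and of 1.44 in the lymphomas. Its main step was therefore between the dKO thymocytes and the lymphomas, where it was 2.10-fold higher. Orc6, the smallest subunit, had log2 ratios of 0.55 and 1.13, and Cdt1 of 0.67 and 0.96. Of the other 4 subunits of the complex, which are not members, Orc2, Orc3, Orc4 and Orc5 lay between -0.32 and 0.17 in dKO CD4SP cells and between -0.22 and 0.78 in the lymphomas.

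The 6 subunits of the MCM ring did not stand equally far from control. Mcm6 (ENSMUSG00000026355, chromosome 1 from 128331590 to 128359664 of mm10, minus strand) was farthest, with averages of 1459.7 in control, 2177 in the libraries labelled Id3KO, 4392 in dKO CD4SP cells, 6241 in the lymphomas and 2974 in TFH cells. These were 3.01-fold above control in dKO CD4SP cells and 4.27-fold in the lymphomas, and Mcm6 was also the member with the largest ratio in TFH cells (2.04-fold) and in the libraries labelled Id3KO (1.49-fold). Mcm4 was nearest to control, at 1247 in control, 1584 in the libraries labelled Id3KO, 1659 in dKO CD4SP cells, 1927 in the lymphomas and 1499 in TFH cells, or 1.33-fold and 1.54-fold above control in dKO CD4SP cells and lymphomas.

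Mcm3 averaged 1333 in control, 1831 in the libraries labelled Id3KO, 2477 in dKO CD4SP cells, 4478 in the lymphomas and 1549 in TFH cells, with log2 ratios of 0.89 in dKO CD4SP cells and 1.75 in the lymphomas. Mcm2 averaged 1562, 2224, 2629, 3177 and 1477 in the same order of groups. Mcm5 averaged 1524, 1864, 2759, 3349 and 1572 in that order. These 3 genes shared the order control, labelled Id3KO, dKO, lymphoma from low to high, and so did Mcm7, which averaged 1642 in control, 1880.5 in the libraries labelled Id3KO, 2665 in dKO CD4SP cells and 3199 in the lymphomas. In TFH cells Mcm7 averaged 1386, below control.

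Because the ring holds 1 copy of each subunit, the levels were also compared per kilobase of transcript, using the longest principal transcript of each gene. In control cells the 6 transcripts ran from 347.6 normalized counts per kilobase for Mcm4 to 554.4 for Mcm7, a ratio of 1.60. In dKO CD4SP cells they ran from 462.2 for Mcm4 to 1509 for Mcm6, a ratio of 3.26, and in the lymphomas from 537.0 to 2145, again Mcm4 and Mcm6, a ratio of 3.99. The ratio was 1.70 in the libraries labelled Id3KO and 2.45 in TFH cells. Mcm6 made up 18.2% of the summed MCM2 to MCM7 level per kilobase in control, 20.6% in the libraries labelled Id3KO, 28.6% in dKO CD4SP cells, 29.9% in the lymphomas and 30.8% in TFH cells. The share of Mcm4 was 12.6% in control and in TFH cells, 12.1% in the libraries labelled Id3KO, 8.75% in dKO CD4SP cells and 7.49% in the lymphomas. The spread between subunits was thus widest in the Id2_Id3_dKO groups, and both a wider spread and a higher Mcm6 share than in control were also seen in wild-type TFH cells, where the summed level was 3322 per kilobase against 2758 in control and 5284 in dKO CD4SP cells.

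**Figure D3:**
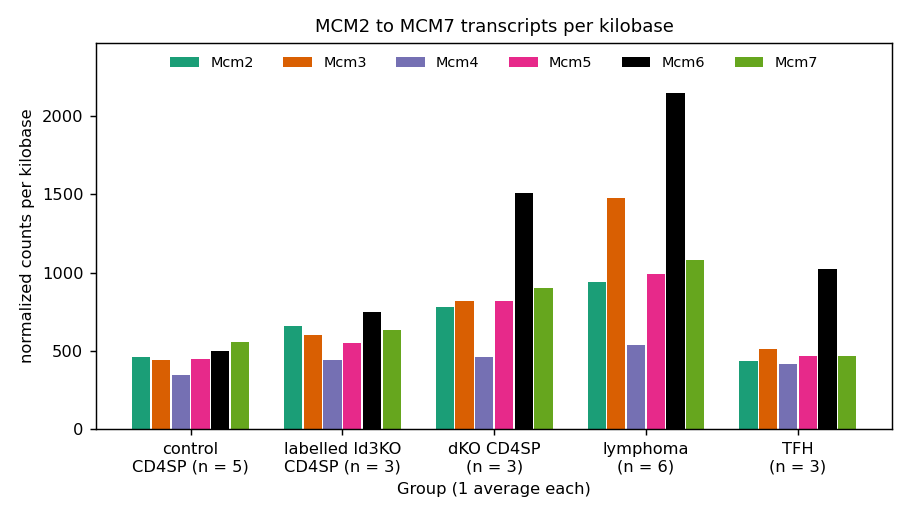
Average normalized counts per kilobase of transcript (vertical axis, from 0) of Mcm2 to Mcm7 in each group, with 1 bar per gene and no error bars because the table holds 1 average per group. The bars of control cells run from 347.6 for Mcm4 to 554.4 for Mcm7. Mcm6 stands at 1509 in dKO CD4SP cells and 2145 in the lymphomas, while Mcm4 is the shortest bar in every group.

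The helicase activators were split. Mcm10, which helps to start unwinding and to bring in polymerase α, averaged 134.1 in control, 177.9 in the libraries labelled Id3KO, 385.6 in dKO CD4SP cells, 624.6 in the lymphomas and 161.4 in TFH cells. It was 2.86-fold above control in dKO CD4SP cells and 4.63-fold in the lymphomas. Cdc45, a subunit of the active helicase, had log2 ratios of 0.91 and 1.32.

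The 4 GINS genes encode a complex with 1 copy of each subunit, yet their ratios differed. Gins1 had log2 ratios of 0.86 in dKO CD4SP cells and 1.68 in the lymphomas, and Gins2 of 0.62 and 0.80. Gins4, lowest of the activators in dKO CD4SP cells, averaged 402.6 in control, 410.6 in the libraries labelled Id3KO, 478.4 in dKO CD4SP cells, 553.3 in the lymphomas and 367.5 in TFH cells. Gins3 averaged 130.1, 142.6, 170.3, 150.6 and 151.03 in that order of groups and had the smallest ratio of all 38 members in the lymphomas, at 0.21 (log2). Gins3 was thus 1.31-fold above control in dKO CD4SP cells and 1.16-fold in the lymphomas, and Gins4 1.19-fold and 1.37-fold.

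The clamp and its loader stood near control, with a median log2 ratio of 0.53 in dKO CD4SP cells and of 0.59, the lowest of the 7 role groups, in the lymphomas. Pcna averaged 2979 in control, 2913 in the libraries labelled Id3KO, 4314 in dKO CD4SP cells, 4248 in the lymphomas and 3247 in TFH cells, so it was 1.45-fold above control in dKO CD4SP cells and 1.43-fold in the lymphomas. A near-identical processed copy, Pcna-ps2 on chromosome 19 (9283380 to 9284160 of mm10), averaged 276.1 in control, 789.8 in the libraries labelled Id3KO, 708.04 in dKO CD4SP cells, 1552 in the lymphomas and 24.4 in TFH cells. Reads can be split between the gene and this copy, so the Pcna values are uncertain. With both added, the log2 ratios to control were 0.63 in dKO CD4SP cells, 0.83 in the lymphomas, 0.19 in the libraries labelled Id3KO and 0.01 in TFH cells.

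Among the loader subunits Rfc4 was farthest from control, with averages of 229.3 in control, 257.03 in the libraries labelled Id3KO, 383.2 in dKO CD4SP cells, 499.2 in the lymphomas and 245.5 in TFH cells. Its log2 ratios were 0.74 and 1.12 in dKO CD4SP cells and lymphomas. Rfc2 was nearest, at 914.2, 922.8, 979.3, 1249.8 and 1129.6 in the same order, or 1.07-fold above control in dKO CD4SP cells. Rfc3 and Rfc5 lay between them. Rfc4 and Rfc2 share exon positions with genes of the opposite strand, as 13 of the 38 members do, and the sources used here do not say whether counting used strand.

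Of the polymerase and primase genes none was past 2-fold in dKO CD4SP cells, where the 6 lay between 0.38 and 0.89 (log2), and 4 were past 2-fold in the lymphomas. Prim2 (ENSMUSG00000026134, chromosome 1 from 33453810 to 33669795, minus strand), the large subunit of the primase that makes the RNA starter, averaged 235.5 in control, 255.1 in the libraries labelled Id3KO, 436.3 in dKO CD4SP cells, 1140.4 in the lymphomas and 251.7 in TFH cells. It had the largest ratio to control of all members in the lymphomas, 4.83-fold, and was 2.61-fold above dKO CD4SP cells. Its partner Prim1, the catalytic subunit, was 1.52-fold above control in dKO CD4SP cells and 2.09-fold in the lymphomas.

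Pola2, the second subunit of polymerase α, was nearest to control of the group, at 491.8 in control, 537.7 in the libraries labelled Id3KO, 641.6 in dKO CD4SP cells, 762.3 in the lymphomas and 579.9 in TFH cells. Pold1, the catalytic subunit of polymerase δ, averaged 805.6, 954.5, 1494.5, 1498 and 863.1 in that order, with log2 ratios of 0.89 in both dKO CD4SP cells and lymphomas. Pola1 and Pole, the catalytic subunits of polymerases α and ε, stood higher in the lymphomas than in dKO CD4SP cells, with log2 ratios of 1.24 against 0.53 and of 1.43 against 0.74. Pola1 lies on the X chromosome, and the Xist averages above apply to it.

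Of the lagging-strand genes Lig1, the ligase that seals Okazaki fragments, averaged 614.6 in control, 810.8 in the libraries labelled Id3KO, 1461 in dKO CD4SP cells, 1658 in the lymphomas and 1192 in TFH cells. It was 2.38-fold above control in dKO CD4SP cells and, with a log2 ratio of 0.96, just short of 2-fold above it in TFH cells. Rpa1, the large subunit of the single-stranded DNA binding protein RPA, averaged 1893 in control, 1865.5 in the libraries labelled Id3KO, 2632 in dKO CD4SP cells, 3158 in the lymphomas and 3642 in TFH cells. It was the 1 member whose highest average was in TFH cells. Rpa2, a smaller subunit of the same protein, did not share this pattern, at 554.9, 721.5, 954.1, 1528 and 666.3 in the same order, and had the largest log2 ratio of the group in the lymphomas, 1.46. Fen1, the flap nuclease, had log2 ratios of 0.79 and 0.85.

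Nucleotide supply was the role group farthest from control in dKO CD4SP cells, with a median log2 ratio of 1.34 and 4 of its 5 genes past 2-fold. Dut (ENSMUSG00000027203, chromosome 2 from 125247190 to 125258608, plus strand), whose product clears dUTP and gives the dUMP used to make thymidylate, averaged 683.1 in control, 765.4 in the libraries labelled Id3KO, 2344 in dKO CD4SP cells, 2007 in the lymphomas and 757.3 in TFH cells. Its 3.43-fold ratio was the largest of all members in dKO CD4SP cells. Rrm2, the regulated subunit of ribonucleotide reductase, averaged 644.9, 759.4, 2007, 1742 and 801.8 in that order, 3.11-fold above control in dKO CD4SP cells and 2.70-fold in the lymphomas.

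Tyms, thymidylate synthase, averaged 407.05 in control, 481.03 in the libraries labelled Id3KO, 1031.5 in dKO CD4SP cells, 756.0 in the lymphomas and 434.7 in TFH cells. Dut, Rrm2 and Tyms, together with Pcna and Gins3, were the 5 members whose highest average was in dKO CD4SP cells, or 13.2% of the members against 19.2% of the kept genes. With Pcna-ps2 added to it, Pcna averaged 5022 in dKO CD4SP cells and 5799.6 in the lymphomas, and so was highest in the lymphomas. The lymphoma average of Tyms was lower than that of dKO CD4SP cells by 0.45 on the log2 scale. Rrm1, the large reductase subunit, had log2 ratios of 1.06 and 1.20. Tk1, thymidine kinase of the salvage route, ran the other way from Tyms, at 313.5 in control, 392.3 in the libraries labelled Id3KO, 593.6 in dKO CD4SP cells, 965.8 in the lymphomas and 472.3 in TFH cells, 1.89-fold and 3.07-fold above control in dKO CD4SP cells and lymphomas.

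**Figure D4:**
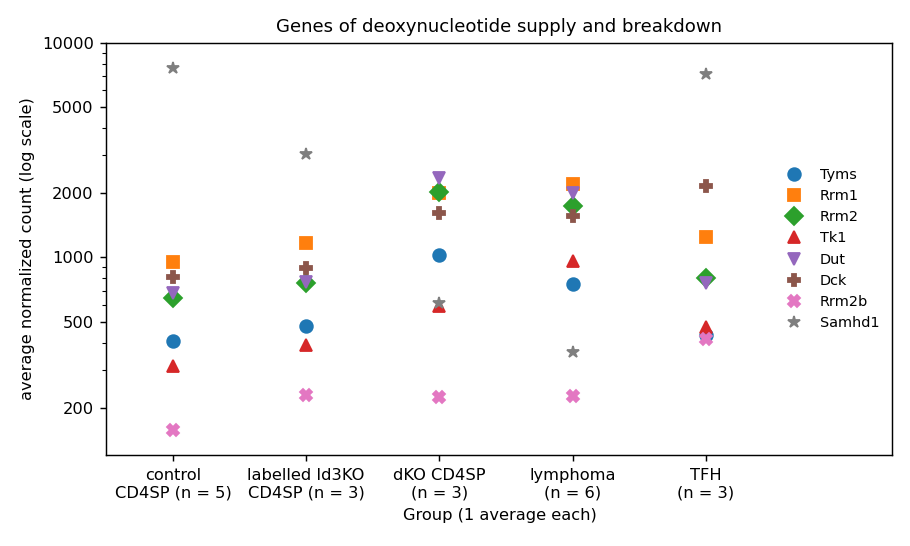
Average normalized counts on a log axis of the 5 nucleotide supply members and of 3 related genes (Dck, Rrm2b and Samhd1) in each group, with 1 point per gene and group and no division by transcript length. Samhd1 stands highest in control (7618) and TFH cells (7165) and lies below Rrm1, Rrm2 and Dut in dKO CD4SP cells (612.4) and lymphomas (361.4).

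The 2 chromatin assembly members, which encode subunits of the same complex that deposits histones behind the fork, differed in direction in dKO CD4SP cells. Chaf1a averaged 261.0 in control, 325.02 in the libraries labelled Id3KO, 551.7 in dKO CD4SP cells, 1020.4 in the lymphomas and 300.8 in TFH cells, 2.11-fold and 3.90-fold above control in dKO CD4SP cells and lymphomas. Chaf1b (ENSMUSG00000022945, chromosome 16 from 93883901 to 93906115, plus strand) averaged 420.4, 586.5, 351.1, 747.4 and 279.1 in that order. It was the 1 member below control in dKO CD4SP cells, by 0.26 on the log2 scale, and above control in the lymphomas, by 0.83. It was also the member farthest below control in TFH cells, at -0.59.

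The order control, labelled Id3KO, dKO, lymphoma from low to high was followed by 30 of the 38 members, against 12.9% of the kept genes. Lymphoma was the highest of the 5 averages for 32 members, against 30.4% of the kept genes. Between the lymphomas and dKO CD4SP cells 33 members were higher in the lymphomas, against 51.9%, and 3 were past 2-fold, where 11.1% of the kept genes were 2-fold higher and 14.4% were 2-fold lower. The 3 were Prim2 (1.38 on the log2 scale), Chaf1b (1.09) and Orc1 (1.07), and the next was Chaf1a at 0.89. The median of this comparison was 0.29 over the members and 0.03 over the kept genes. It shares its 2 averages with the comparisons to control, which in turn share the control average.

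The lymphoma average pools CD4+ and CD8+ lymphomas of 3 organs, and markers of other cells moved with it. The summed level of Cd8a and Cd8b1 was 715.6 in control, 231.4 in dKO CD4SP cells and 1849 in the lymphomas. The summed T cell markers were 68132 in control, 59181 in dKO CD4SP cells and 40211 in the lymphomas. In dKO CD4SP cells 3 of these 6 markers were above control and 3 below, and in the lymphomas 1 was above and 5 below. Cd4 was farthest below control in both, at 15039 in control, 6565 in dKO CD4SP cells and 4110 in the lymphomas. The 8 markers of immature thymocytes, which hold Cd8a and Cd8b1 too, summed to 1136 in control, 728.3 in dKO CD4SP cells and 3026 in the lymphomas, where Rag2 was listed at 0. The 6 myeloid markers summed to 85.7 in control, 198.3 in dKO CD4SP cells and 458.8 in the lymphomas. Most of each sum was Itgam, at 69.4, 180.8 and 273.8 in that order. Of the 6 markers, 5 were below 10 in control and in dKO CD4SP cells, and 2 in the lymphomas. The sums of the 5 erythroid markers were 13.2 in control, 11.4 in dKO CD4SP cells and 73.9 in the lymphomas. The 5 germinal center B and plasma cell markers summed to 254.6 in control, 337.3 in dKO CD4SP cells and 1591 in the lymphomas, and the 4 markers of NK and γδ cells in the table to 361.0, 905.1 and 1747.5. The higher sum of the latter lay in Sox13, at 127.3, 777.9 and 1616 in that order, while Nkg7 (159.8, 89.2 and 78.1) and Klrb1c (73.7, 38.1 and 52.4) were lower than in control. The part of these cells in the replication gene averages was not tested.

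In TFH cells the members lay near control. Past 2-fold was 1 member, Mcm6 at 1.03 (log2), and none was 2-fold lower, where 11.8% of the kept genes were 2-fold higher and 9.8% were 2-fold lower. Of the 38, 30 were above control, against 47.9% of the kept genes. The median was 0.15 over the members against -0.02 over the kept genes, and 33 of the 38 lay within 1.5-fold of control, against 63.6% of the kept genes. The 5 beyond 1.5-fold were Mcm6, Lig1, Rpa1 and Tk1, which were higher, and Chaf1b, which was lower. For 8 members, Orc1, Cdc6, Mcm2, Mcm7, Cdc45, Gins4, Rfc3 and Chaf1b, the TFH average was the lowest of the 5. The share of the kept genes with this pattern was not computed, so the count is not read as a trait of the members.

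TFH cells are a different cell state from a different organ, and markers of B cells were also higher in them. The 8 B cell markers summed to 122.1 in control, 138.8 in dKO CD4SP cells, 594.4 in the lymphomas and 1979 in TFH cells, and 7 of the 8 were past 2-fold above control in TFH cells. The germinal center B and plasma cell markers summed to 1832 in TFH cells. Their part in the TFH values was not tested.

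Set against TFH cells, dKO CD4SP cells had higher averages for 36 members, against 50.4% of the kept genes. The exceptions were Rpa1 and Rfc2. Past 2-fold were 5 members, all higher in dKO CD4SP cells, where 15.3% of the kept genes were 2-fold higher and 13.1% were 2-fold lower. These were Dut (1.63 on the log2 scale), Cdc6 (1.61), Rrm2 (1.32), Mcm10 (1.25) and Tyms (1.24), and the next was Mcm7 at 0.94. The median was 0.56 over the members and 0.01 over the kept genes. Of the 5 TFH markers, Cxcr5, the follicular homing receptor, averaged 44.6 in control, 2006 in dKO CD4SP cells and 9568 in TFH cells. Il21 averaged 108.8, 419.6 and 1551 in that order, and Bcl6 averaged 529.9, 549.4 and 3543. Pdcd1 averaged 447.9, 5668 and 5192, and Icos 2144, 4006 and 3621. Pdcd1 and Icos were thus higher in dKO CD4SP cells than in TFH cells.

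In the libraries labelled Id3KO no member was past 2-fold, where 5.57% of the kept genes were 2-fold higher and 4.43% were 2-fold lower. Of the 38, 35 were above control, against 48.6%, with a median of 0.24 against -0.01. All 38 lay within 1.5-fold of control, against 79.7% of the kept genes. The farthest were Mcm6 (0.58 on the log2 scale), Mcm2 (0.51), Cdt1 (0.48), Chaf1b (0.48) and Mcm3 (0.46), so 4 of the 5 farthest were licensing genes. Pcna, Rpa1 and Rfc3 were below control by at most 0.05. These small offsets were not set against the spread between samples.

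Other genes of replication and its supply were taken from lists of 81 genes outside the members. In dKO CD4SP cells 8 of the 81 were past 2-fold higher and 1 was lower, to be read beside the 14.1% and 10.1% of all kept genes, and in the lymphomas 29 were higher and 2 were lower, beside 18.2% and 17.2% of all kept genes. Of 12 further subunits of the complexes named above, none was past 2-fold in dKO CD4SP cells and 1, Pold2, in the lymphomas, where it averaged 1103 against 521.8 in control. Of 20 firing and fork factors, none was past 2-fold in dKO CD4SP cells and 8 were in the lymphomas, led by Tipin (1.58 on the log2 scale) and Clspn (1.53), which hold the fork checkpoint, and Dscc1 (1.35), of an alternative clamp loader.

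Of 7 genes that limit licensing or take part in the destruction of CDT1, 2 were past 2-fold higher in dKO CD4SP cells and 3 in the lymphomas, and none was 2-fold lower. Of the kept genes, 14.1% and 18.2% were 2-fold higher in these comparisons, and 10.1% and 17.2% were 2-fold lower. Dtl, the receptor of the ligase that removes CDT1 in S phase, averaged 177.4 in control, 382.7 in dKO CD4SP cells and 645.03 in the lymphomas. Geminin (Gmnn), the inhibitor of CDT1, averaged 204.7, 407.5 and 503.3 in that order. Cdkn1a, the p21 inhibitor of cyclin-dependent kinases and PCNA, averaged 8.66 in control, 33.1 in dKO CD4SP cells, 77.96 in the lymphomas and 55.6 in TFH cells, so its level was low in every group.

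Of 14 further genes of nucleotide metabolism, Samhd1 was farthest from control of the members and all 81 of these genes, and it was lower. Its product breaks down deoxynucleoside triphosphates. Samhd1 averaged 7618 in control, 3039 in the libraries labelled Id3KO, 612.4 in dKO CD4SP cells, 361.4 in the lymphomas and 7165 in TFH cells. It was 12.4-fold lower than control in dKO CD4SP cells and 21.03-fold lower in the lymphomas, at -1.33 (log2) in the libraries labelled Id3KO and at -0.09 in TFH cells. Of the same list, Impdh2, the first step to guanine nucleotides, was past 2-fold higher in dKO CD4SP cells (1.14), and Impdh2, Shmt1 and Gart were past it in the lymphomas, at 1.58, 1.66 and 1.62.

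The E2F factors and pocket proteins, which act upstream of the members, were mixed. E2f2 averaged 849.1 in control, 978.8 in the libraries labelled Id3KO, 2041 in dKO CD4SP cells, 1988 in the lymphomas and 832.4 in TFH cells. E2f1 averaged 278.2, 332.7, 537.2, 653.9 and 180.2 in that order. Rb1, the pocket protein that holds E2F back, averaged 1132, 888.9, 643.6, 353.9 and 946.4 in that order, 3.19-fold lower in the lymphomas than in control. In this list of 13 genes 1 was past 2-fold higher and none lower in dKO CD4SP cells, and 3 were higher and 1 lower in the lymphomas. Of the kept genes, 14.1% were 2-fold higher and 10.1% lower in dKO CD4SP cells, and 18.2% and 17.2% in the lymphomas.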

How the data were processed

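RNA was measured in 20 samples of 5 groups, taken from the sample labels. The authors aligned strand-specific Illumina reads to mm10 with OSA in Arraystudio, quantified them with RSEM and normalized the counts with DESeq; the sources name no versions. The signal used here is the authors' deposited average of normalized counts for each group. The table had 0 columns with values per sample, so library depth is unknown, and neither errors nor intervals nor tests were computed. Its columns of fold changes, p-values and false discovery rates of the authors' own comparisons were not used. The group averages summed to between 13386015 and 15497262. The study states that genes under 10 in all samples were removed, yet the table still holds genes listed at 0.

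Log2 ratios had a pseudocount of 1, and genes were kept with at least 1 of 5 averages at 10 or more. The ratios and counts were checked on made-up tables with known changes. Positions and transcript lengths were from GENCODE M21 on GRCm38 (mm10), and promoter windows from RefSeq (GRCm38.p6). Nothing in the labels says whether samples of a group came from separate animals. The members, role groups and other lists were chosen with earlier results of these data known. Values in all groups were given for the member with the largest and the smallest log2 ratio of each role group in the dKO and lymphoma comparisons, for members whose direction differed between them, for Pcna and for Mcm2 to Mcm7. Of each other list, up to 3 genes past 2-fold with the largest log2 ratio in each direction were named, and Id2 and Id3 as the check of the labels. Cdc6 and Rrm2 in all groups, and Orc2 to Orc5, Mcm8, Mcm9, Ccne1, Ccne2, Dck, Rrm2b, Xist and the cell type markers were named outside this rule, after their values were seen, and some genes of the lists are not reported here. Other pseudocounts, minimums, fold thresholds and scalings were tried. Python 3.11.15, numpy 2.4.6, pandas 2.3.3 and matplotlib 3.10.9 were used.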

Additional observations from a re-analysis of the deposited data

How the results depend on the processing

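No paired analysis was possible because the deposited columns are group averages. For the same reason leaving out single replicates and a fit with a replicate block were not run. Of 48 recomputed counts of members past the fold, 37 stayed within 1.5 times the count given, and 11 did not. All 38 members passed every minimum tried, so the recounts with other minimums could not move. In the libraries labelled Id3KO no member was past the fold at any setting. With a 1.5-fold threshold, 26 members were higher in dKO CD4SP cells than in control, 34 in the lymphomas and 4 in TFH cells, with 12 higher in the lymphomas than in dKO CD4SP cells and 18 higher in dKO CD4SP cells than in TFH cells, beside 23.6%, 28.2%, 18.7%, 20.1% and 24.8% of the kept genes. With a 3-fold threshold these counts were 3, 8, 0, 0 and 2, beside 8.03%, 11.3%, 7.1%, 6.44% and 8.52%. With the averages rescaled to the same sum, 1 member in place of 3 was 2-fold higher in the lymphomas than in dKO CD4SP cells, and the median of that comparison was 0.17 in place of 0.29 (log2). Against control, the same rescaling left 16 members in place of 22 past 2-fold in the lymphomas, with a median of 0.92 in place of 1.12. In dKO CD4SP cells it left 7 in place of 9, with a median of 0.66 in place of 0.74. The shares of the kept genes were then 9.85%, 15.2% and 12.7%. Of 608 recomputed log2 ratios of members none moved by more than 1.5-fold, and 4 changed sign, all of them within 0.04 of 0 (Cdc45 in TFH cells, and Gins4, Rfc2 and Rfc5 in the libraries labelled Id3KO). Only the pseudocount and the scaling differed in these recomputations. The group sums lie close together and the member averages exceed the pseudocounts, so a move past 1.5-fold was hardly possible. That none moved so far is therefore no support for the ratios. Adding Pcna-ps2 to Pcna was chosen after the data were seen, and it turned the Pcna ratio in the libraries labelled Id3KO from -0.03 to 0.19 and that of the lymphomas to dKO CD4SP cells from -0.02 to 0.21. The table gives no depth, so what depth limits is unknown.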

Other observations

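Of 13 genes of S phase chromatin and genome maintenance, 4 were past 2-fold higher in dKO CD4SP cells (beside 14.1% of the kept genes) and 7 in the lymphomas (beside 18.2% of the kept genes), and none was 2-fold lower in either, with medians of 0.83 and 1.22 (log2). Uhrf1, which brings the maintenance methyltransferase to newly copied DNA, averaged 847.3 in control, 1029.5 in the libraries labelled Id3KO, 2043 in dKO CD4SP cells, 3133 in the lymphomas and 882.3 in TFH cells. Exo1, a nuclease of mismatch repair, averaged 90.2, 112.9, 208.5, 305.6 and 79.8 in that order. Chek1, the replication checkpoint kinase, averaged 116.3, 126.3, 269.3, 333.7 and 76.3.

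The MCM paralogs outside the ring differed in direction in dKO CD4SP cells. Mcm8 averaged 60.6 in control, 108.8 in dKO CD4SP cells and 118.6 in the lymphomas, whereas Mcm9 averaged 275.0, 196.4 and 246.5.

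Of 20 mitotic genes, 3 were past 2-fold higher in dKO CD4SP cells, a share near the 14.1% of the kept genes, namely Ccnb1 (1.29 on the log2 scale), Kif20a (1.17) and Cdk1 (1.16), and 12 in the lymphomas, beside 18.2% of the kept genes, led by Ccnb2 (1.54), Bub1b (1.54) and Ccnb1 (1.47). The median over the 20 was 0.67 in dKO CD4SP cells and 1.09 in the lymphomas. In TFH cells Ccnb1 was past 2-fold, at 1.13, with an average of 421.1 against 191.5 in control.

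The cyclin E genes, whose products act at the start of S phase, were both higher in dKO CD4SP cells. Ccne1 averaged 287.9 in control, 311.5 in the libraries labelled Id3KO, 746.7 in dKO CD4SP cells, 851.8 in the lymphomas and 315.7 in TFH cells. Ccne2 averaged 100.3, 114.02, 260.8, 163.0 and 82.5 in that order, so its highest average was in dKO CD4SP cells.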
